A study of Mus musculus with 18 samples.

Results

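The megakaryocyte and platelet set holds 33 genes, picked by symbol for what they do in megakaryocytes or platelets. The choice was made with earlier results of these data known. Of the 44349 genes in the deposited table, 32 are members with a row, and Zfpm1 was not analysed here. Of these 32 members, 31 had 1 FPKM or more (fragments mapped to a gene, scaled by its length and by the depth of the library) in 3 or more of the 18 libraries and were tested among 14285 genes. Tubb1, the platelet-specific beta-tubulin, stayed below that filter.

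The RNA came from bone marrow cells sorted as long-term haematopoietic stem cells (LT-HSC) of mice without DERARE, an element in the Hoxb cluster that responds to retinoic acid, and of wild-type mice. The 18 libraries form 6 groups of 3. KO Reserve holds knockout cells and WT Reserve wild-type cells, both with a reserve label that the labels do not define. This follows their titles and headers, since the genotype field of KO Reserve reads "wild type reserve ko" and is ambiguous. KO Wnt5a holds knockout cells labelled as a Wnt5a rescue, and KO Ctrl holds knockout controls. The Wnt5a group carries only the name of this noncanonical Wnt ligand as its genotype, its column header placing it with the wild-type cells, and WT holds wild-type controls. The stated gate, one for the whole series, takes lineage-negative, Sca-1-positive, c-Kit-positive cells without CD34 and Flk2 and with low CD49b. How and for how long Wnt5a was given, the age of the mice and whether replicates were separate animals are not stated in the labels, so that p-values reflect only how much these libraries vary. The headers of the 6 reserve libraries also name the allele differently from those of the other 12 libraries, so that effects of the reserve label, of the allele and of the library set cannot be told apart.

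Megakaryocytes are the large, polyploid marrow cells that shed platelets into the blood. They arise from stem and progenitor cells under the cytokine thrombopoietin, and they fill their granules with chemokines, adhesive proteins and clotting factors while they assemble the surface receptors that platelets later use to bind vessel walls and to aggregate. Part of this programme, including von Willebrand factor and integrin alphaIIb, is known to be active already in some LT-HSC, which have been described as platelet-biased. Factors of the GATA, ETS, RUNX and NF-E2 families drive megakaryocyte genes.

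Promoter windows from RefSeq (GRCm38.p6), 250 bases before to 50 after the transcription start, matched 26 members in 28 windows. Shown here are the windows of the 4 members with the largest called changes between the genotypes among those with a window, which leaves out Cd226, and that of Pf4, added after its values were seen because it had the highest level of all members. Capitals mark the motifs searched on both strands. The GATA motif was AGATAA, with the variant TGATAA. The ETS motif was AGGAAG, with the variant CGGAAG. The core of the NF-E2 motif was TGAGTCA, and the RUNX motif was TGTGGT. Base 251 of each line is the start site, which for Plek lies inside the longer gene span given below.
Alox12 (chr11:70255321-70255620, minus strand, GRCm38.p6): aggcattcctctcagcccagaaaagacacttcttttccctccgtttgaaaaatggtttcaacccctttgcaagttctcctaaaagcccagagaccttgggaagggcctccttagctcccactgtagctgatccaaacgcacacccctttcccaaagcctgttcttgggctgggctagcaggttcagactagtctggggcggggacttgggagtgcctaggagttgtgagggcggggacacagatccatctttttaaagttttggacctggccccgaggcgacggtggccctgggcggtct
P2rx1 (chr11:72998895-72999194, plus strand, GRCm38.p6): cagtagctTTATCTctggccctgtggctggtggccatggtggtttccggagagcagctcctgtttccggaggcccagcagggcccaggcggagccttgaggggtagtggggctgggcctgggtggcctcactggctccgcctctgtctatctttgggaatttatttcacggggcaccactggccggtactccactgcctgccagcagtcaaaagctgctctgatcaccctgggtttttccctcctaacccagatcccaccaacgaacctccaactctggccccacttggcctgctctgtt
F2rl2 (chr13:95696670-95696969, plus strand, GRCm38.p6): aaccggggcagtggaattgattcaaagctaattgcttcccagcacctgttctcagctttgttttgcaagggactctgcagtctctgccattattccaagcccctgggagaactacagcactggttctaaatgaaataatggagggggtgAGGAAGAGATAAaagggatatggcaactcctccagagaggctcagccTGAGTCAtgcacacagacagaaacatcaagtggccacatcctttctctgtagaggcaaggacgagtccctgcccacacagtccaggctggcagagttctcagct
Plek (chr11:17008669-17008968, minus strand, GRCm38.p6): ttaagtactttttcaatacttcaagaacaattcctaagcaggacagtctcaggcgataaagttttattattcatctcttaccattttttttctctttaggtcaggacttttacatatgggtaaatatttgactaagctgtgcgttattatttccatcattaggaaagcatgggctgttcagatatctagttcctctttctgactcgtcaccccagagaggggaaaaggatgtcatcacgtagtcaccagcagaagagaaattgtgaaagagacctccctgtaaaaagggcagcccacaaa
Pf4 (chr5:90772185-90772484, plus strand, GRCm38.p6): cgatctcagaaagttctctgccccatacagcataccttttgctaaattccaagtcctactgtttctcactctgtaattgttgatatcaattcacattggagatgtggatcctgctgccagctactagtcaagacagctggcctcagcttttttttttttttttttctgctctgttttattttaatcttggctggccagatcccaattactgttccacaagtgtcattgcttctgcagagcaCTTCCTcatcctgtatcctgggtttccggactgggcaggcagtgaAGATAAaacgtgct

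In F2rl2 the ETS letters (bases 150 to 155) and the GATA letters (bases 156 to 161) stood side by side, and the NF-E2 core followed at bases 197 to 203. In Pf4 the ETS letters stood on the reverse strand just before the start (bases 242 to 247) and AGATAA just after it (bases 287 to 292). P2rx1 held a reverse GATA match far from its start, and the windows of Alox12 and Plek held none of the 4 motifs. GATA letters were present in 8 of the 26 members (28.6% of their windows, against 18.6% of all 32851 windows), and the NF-E2 core in 3 (10.7%, against 5.2%). ETS letters were present in 15 members (57.1%, against 46.5%) and RUNX letters in 5 (17.9%, against 16.8%). No matched sites overlapped each other in the member windows, and a match is a description of the letters only.

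The lowest frequent value of FPKM times length, in genes with 1 annotated transcript of 600 to 5000 bases, was taken as 1 fragment. This gave an inferred depth of 20400000 to 40700000 fragments per library. At that depth, 3 fragments on a 1 kb transcript equal 0.0736 to 0.147 FPKM. These floors cover counting error only. Replicates correlated on the log2 scale at 0.932 to 0.968 within a group. Markers of other cells differed between the library sets. Granulocyte markers (14 genes, of which 12 to 14 reached 1 FPKM in the reserve libraries and 4 or 5 in WT) summed to 2578 to 3851 FPKM in KO Reserve and 4928 to 10800.2 FPKM in WT Reserve, against 104 to 123 FPKM in WT. Erythroid markers (16 genes) summed to 8074 to 9589 FPKM in KO Reserve and 5392 to 7616 in WT Reserve, against 468 to 530.4 in WT. Lymphoid markers (14 genes) summed to 1849.8 to 2214 FPKM in KO Reserve and 2603 to 2953 in WT Reserve, against 88.9 to 95.7 in WT. These levels in the reserve libraries stand beside a stated gate that leaves out lineage-positive cells. LT-HSC markers (17 genes) summed to 163 to 177 FPKM in KO Reserve and 441 to 569 in WT Reserve, against 971 to 1035 in WT, and in the KO Wnt5a, KO Ctrl and Wnt5a libraries to between 974 and 1115 FPKM. The libraries are unstranded, and 9 members share exonic bases with another gene, named beside their results where it matters.

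Among the 12 libraries without the reserve label, the summed level of the platelet genes was lowest in KO Wnt5a. Pf4, the platelet chemokine CXCL4, ranked 3 of the 14285 genes in WT. In these 12 libraries 26 of the 32 members never fell below 1 FPKM. The summed FPKM of all members without Pf4 was 2713, 2423 and 2317 in KO Wnt5a, against 4982 to 6381 in WT. The 3 KO Wnt5a libraries lay below every WT library in 30 of the 31 members tested, Mmrn1 being the exception, against 13.9% of all genes tested.

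**Figure D1:**
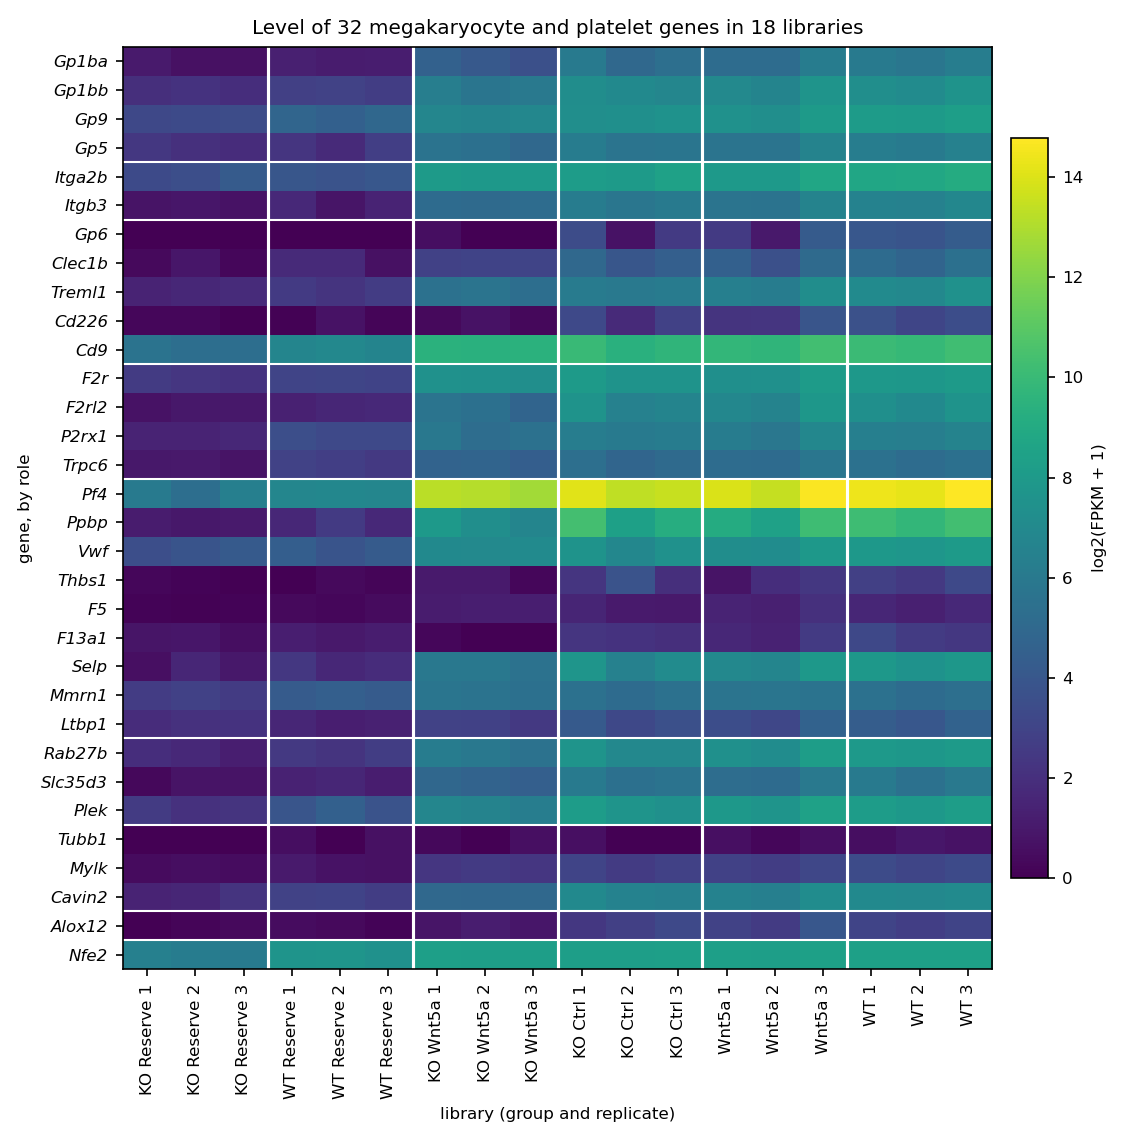
Heat map of log2(FPKM + 1) for the 32 members with a row (rows, by role) in the 18 libraries (columns, by group and replicate). Pf4 is the brightest row in the 12 libraries without the reserve label, and the 6 reserve libraries are dark for most genes except Pf4, Nfe2 and Cd9.

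KO Wnt5a against WT, which differ in both genotype and the Wnt5a label, had the most members called among the 12 libraries without the reserve label. In limma with Benjamini-Hochberg adjustment, 27 of 31 members were lower in KO Wnt5a and none was higher, where 5.03% of all genes tested were lower and 11.8% changed either way. The median log2 fold change was -1.44 over the members and 0.09 over all genes. F2r, F5, Mmrn1 and Nfe2 did not pass. Without WT replicate 3 the count was 20. Markers of other cells differed between the same libraries. Granulocyte markers summed to 27.0 to 33.6 FPKM in KO Wnt5a and 104 to 123 FPKM in WT. Of 14 tested, 2 were lower and 0 higher, with a median log2 fold change of -0.12. Endothelial markers (13 genes) summed to 305 to 327 FPKM in KO Wnt5a and 227 to 244 in WT. Of 7 tested, 3 were lower and only 1 higher, with a median of -0.02, so the sum and most called genes moved apart. Mast cell and basophil markers (10 genes) summed to 127 to 142 FPKM in KO Wnt5a and 76.0 to 86.6 in WT. Of 8 of them tested, only Gata2, also an LT-HSC marker, was higher and 0 were lower. Their median log2 fold change was -0.41, so the sum and most single genes did not move together. LT-HSC markers had 6 of 16 tested higher and 2 lower, with a median of 0.48. Lymphoid markers summed to 106 to 117 FPKM in KO Wnt5a and 88.9 to 95.7 in WT, with 4 of 12 higher and 0 lower. Erythroid markers summed to 629.9 to 675 in KO Wnt5a and 468 to 530.4 in WT, with 1 of 15 higher and 0 lower. Monocyte and macrophage markers summed to 104 to 114 in KO Wnt5a and 134 to 153 in WT, with 1 of 10 higher and 0 lower. The part of all these cells in the members' values was not tested.

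KO Wnt5a was also set against the groups that share its label or its genotype. KO Wnt5a against Wnt5a, the genotypes under the same label, had 14 members lower and 0 higher, where 1.82% of all genes were lower and 1.41% higher (3.23% either way), with medians of -1.003 over the members and 0.05 over all genes. KO Wnt5a against KO Ctrl, the label within the knockout, had 10 lower and 0 higher, where 0.707% of all genes were lower (1.02% either way), with medians of -0.95 and 0.04. The groups did not overlap, with KO Wnt5a lower, for 25 members in each of these comparisons, against 10.2% of all genes tested for the first and 6.76% for the second. For KO Wnt5a against KO Ctrl 10.1% of all genes did not overlap with KO Wnt5a higher. All 3 comparisons share the KO Wnt5a libraries and are not independent of each other. The counts moved with single libraries. For KO Wnt5a against KO Ctrl the count was 3 without KO Ctrl replicate 1 (Alox12, F13a1 and Cavin2), 3 without KO Wnt5a replicate 3, 4 without KO Wnt5a replicate 2, and 3 when only the 12 libraries without the reserve label were fitted, a fit added after the data were seen. For KO Wnt5a against Wnt5a it was 9 without Wnt5a replicate 3, KO Wnt5a replicate 2 or KO Wnt5a replicate 3, and 3 (Alox12, F13a1 and Cavin2) when only the libraries of the comparison were fitted. Alox12, F13a1 and Cavin2 passed in both comparisons under every alternative run that kept them in the test.

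Markers of other cells and of LT-HSC also differed in these comparisons. Granulocyte markers summed to 27.0 to 33.6 FPKM in KO Wnt5a and 128 to 179.6 in Wnt5a, with 3 of 14 tested lower and 0 higher. In Wnt5a, erythroid markers summed to 465 to 575 FPKM, endothelial markers to 218 to 291 and LT-HSC markers to 974 to 988. In KO Wnt5a, these lists summed to 629.9 to 675, 305 to 327 and 1020 to 1060. Of 8 mast cell and basophil markers tested, 4 were lower in KO Wnt5a than in Wnt5a and 1 higher, though their sums overlapped. Mast cell and basophil markers summed to 127 to 142 FPKM in KO Wnt5a and 52.5 to 78.2 in KO Ctrl, with 3 of 8 tested higher and 0 lower. Erythroid markers summed to 504 to 592 in KO Ctrl, and 0 of 15 tested passed, with a median log2 fold change of 0.03. LT-HSC markers summed to 1083 to 1115 in KO Ctrl and endothelial markers to 206 to 283. Of 7 endothelial markers tested, 2 were lower in KO Wnt5a and 0 higher, against their sum. Monocyte and macrophage markers summed to 104 to 114 in KO Wnt5a and 128 to 143 in KO Ctrl. None of the ranges given here overlapped between the groups compared. The part of these markers in the members' values was not tested.

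**Figure D2:**
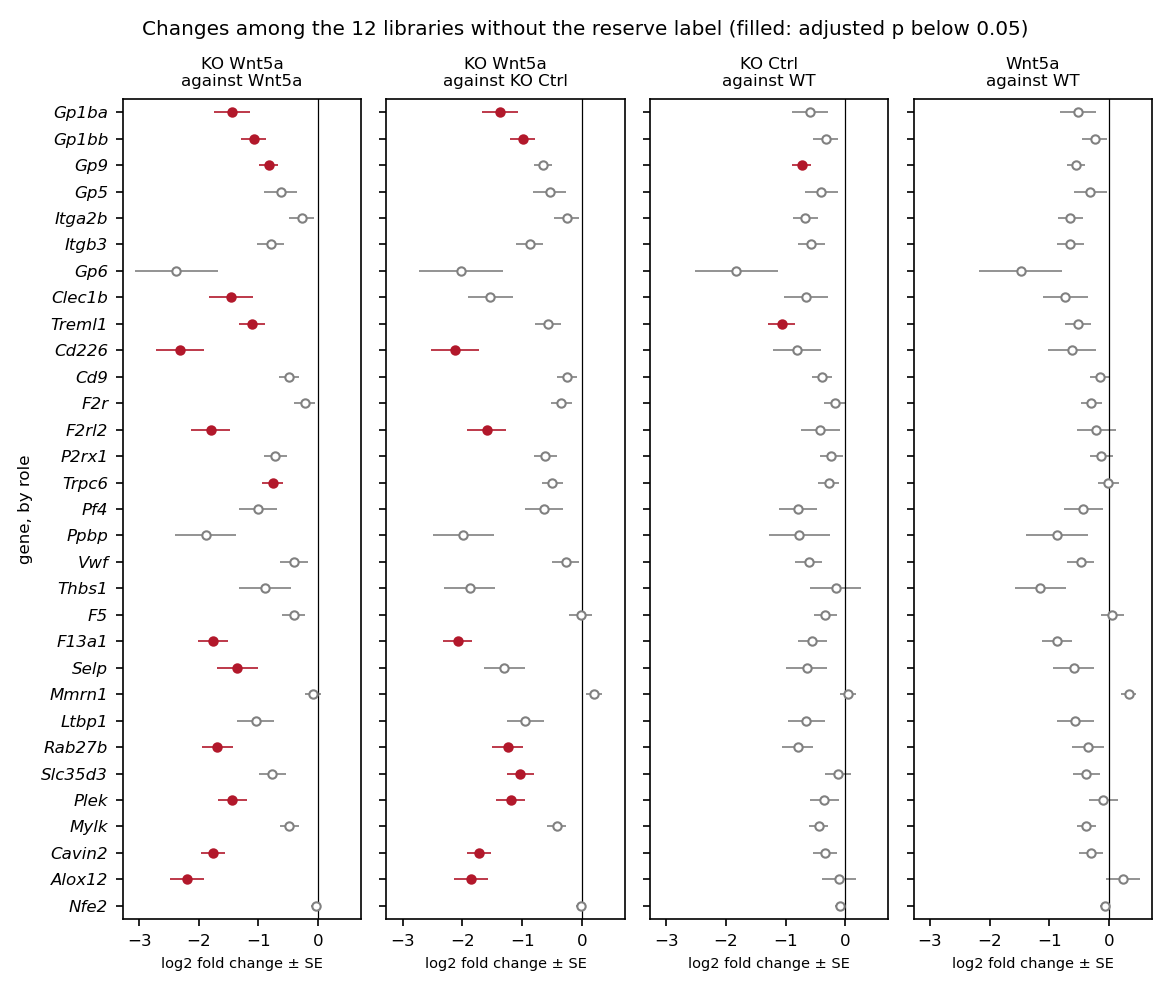
Log2 fold change with its SE (x axis) of each tested member (y axis, by role) in comparisons among the libraries without the reserve label, as named above each panel. Almost all members lie left of 0 where KO Wnt5a is compared, and Mmrn1 and Nfe2 lie close to 0. Filled points passed the threshold.

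Alox12 encodes the platelet-type 12-lipoxygenase, which makes 12-HETE from arachidonic acid (ENSMUSG00000000320, chromosome 11, 70241457 to 70255353, GRCm38). Its level was 0.778, 1.25 and 0.876 FPKM in KO Wnt5a and 4.35, 5.88 and 8.70 in KO Ctrl, and 6.48, 4.96 and 15.2 in Wnt5a and 7.19, 5.69 and 7.07 in WT. All KO Wnt5a libraries were below all 9 others of this set, and those 9 overlapped. The change was -2.20 (SE 0.29, adjusted p = 0.000434) against Wnt5a on the log2 scale, and -1.86 (SE 0.29, adjusted p = 0.00225) against KO Ctrl.

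F13a1, the A chain of the clot-stabilising transglutaminase factor XIII (ENSMUSG00000039109, chromosome 13, 36867178 to 37050244), was at 0.208, 0 and 0 FPKM in KO Wnt5a, with 2 of the libraries listed at 0. It was at 3.95, 3.54 and 3.06 FPKM in KO Ctrl, 2.11, 1.66 and 4.72 in Wnt5a and 8.09, 5.05 and 4.27 in WT. Against KO Ctrl the fitted change was -2.08 (SE 0.25, adjusted p = 0.000254), and against Wnt5a it was -1.76 (SE 0.25, adjusted p = 0.000762). The KO Wnt5a libraries were also below the reserve libraries for this gene, whose means were 0.716 ± 0.211 FPKM in KO Reserve and 1.22 ± 0.153 in WT Reserve (SD, n = 3 each).

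Cavin2 encodes a coat protein of caveolae, first known as the serum deprivation response protein, and is abundant in platelets (ENSMUSG00000045954, chromosome 1, 51289126 to 51302960). It stood at 30.5, 29.1 and 30.6 FPKM in KO Wnt5a, 127, 93.8 and 87.1 in KO Ctrl, 93.6, 83.5 and 144 in Wnt5a and 130.2, 119 and 135 in WT. The KO Wnt5a libraries were nearly equal to each other and far below the rest of this set. Its mean was 3.56-fold lower than in Wnt5a (a change of -1.76 on the log2 scale with SE 0.20 and adjusted p = 0.000113) and 3.42-fold lower than in KO Ctrl (a change of -1.72 on the log2 scale with SE 0.20 and adjusted p = 0.000254).

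Mylk, the myosin light chain kinase of contractile cells, had means of 4.30 ± 0.357 FPKM in KO Wnt5a, 6.15 ± 1.15 in KO Ctrl, 6.47 ± 1.14 in Wnt5a and 8.67 ± 0.914 in WT (SD, n = 3 each). It passed against WT only, at -0.86 (SE 0.16, adjusted p = 0.00231). Tubb1 ranged up to 0.864 FPKM in any library and was at 0 in several, so its order over the groups could not be read at this depth.

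The GPIb-IX-V complex is the receptor by which platelets catch von Willebrand factor. Gp1ba, its ligand-binding chain (ENSMUSG00000050675, chromosome 11, 70639122 to 70642036), was at 22.9, 16.4 and 11.1 FPKM in KO Wnt5a and 64.9, 30.4 and 41.5 in KO Ctrl, with 36.4, 35.7 and 73.9 in Wnt5a and 68.3, 54.6 and 76.7 in WT. The KO Wnt5a libraries were below the other 9 of this set, while KO Ctrl and Wnt5a overlapped with WT. The change was -1.38 (SE 0.30, adjusted p = 0.038) against KO Ctrl and -1.45 (SE 0.30, adjusted p = 0.0143) against Wnt5a. The first call was lost in 10 of 16 alternatives and the second in 6.

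Gp1bb, the disulfide-linked beta chain (chromosome 16, 18620317 to 18622403), had 79.9, 52.8 and 61.4 FPKM in KO Wnt5a and 153, 127 and 107 in KO Ctrl, against which it passed with -0.99 (SE 0.21, adjusted p = 0.0321), a call lost in 8 of 16 alternatives. It shares 91.1% of its annotated exonic bases with Sept5 and 41.5% with Gm49601, both on the same strand, so reads there cannot be told apart. Sept5 was listed at or below 0.965 FPKM in all libraries, and the level of Gm49601 is not given here. Gp9, the small chain needed to bring the complex to the surface, had 111, 101 and 115 FPKM in KO Wnt5a, 159.8, 167 and 187 in KO Ctrl, 178, 155 and 265 in Wnt5a and 272, 267 and 318 in WT. For Gp9 the KO Wnt5a libraries were the lowest and the WT libraries the highest of the 12, without overlap with the other groups, and the change was -0.83 (SE 0.16, adjusted p = 0.00758) against Wnt5a and -0.65 (SE 0.16, adjusted p = 0.0655) against KO Ctrl. Gp5, the thrombin-cleaved chain, averaged 40.8 ± 9.47 FPKM in KO Wnt5a and 78.4 ± 11.0 in WT, a difference of -0.94 (SE 0.28, adjusted p = 0.0372) that was lost without any one of the WT libraries.

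Integrin alphaIIb-beta3 is the fibrinogen receptor through which platelets aggregate. Itga2b, the alphaIIb or CD41 chain (ENSMUSG00000034664, chromosome 11, 102453297 to 102470122), had 268, 232 and 250.3 FPKM in KO Wnt5a and 293, 260.0 and 345 in KO Ctrl, with 259, 254 and 423 in Wnt5a and 431, 464 and 538 in WT. WT libraries were above all others, and KO Wnt5a overlapped with KO Ctrl. The change passed against WT (a change of -0.93 on the log2 scale with SE 0.21 and adjusted p = 0.00983), but not without WT replicate 3. Itgb3, the beta3 chain, averaged 35.1 ± 0.948 FPKM in KO Wnt5a, 65.7 ± 8.90 in KO Ctrl, 65.1 ± 27.2 in Wnt5a and 97.9 ± 13.8 in WT (SD, n = 3 each), and it too passed against WT only, at -1.44 (SE 0.23, adjusted p = 0.000795).

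Among the other surface proteins, Gp6, the collagen receptor of platelets (chromosome 7, 4363965 to 4397744), was low in KO Wnt5a. It was at 0.436, 0.033 and 0.026 FPKM in KO Wnt5a, 9.74, 0.646 and 4.79 in KO Ctrl, 4.61, 0.994 and 18.01 in Wnt5a and 15.2, 13.1 and 19.0 in WT. All KO Wnt5a values were below the lowest value of the other 3 groups, and KO Ctrl and Wnt5a each spread widely, with replicate 2 the lowest in both. The change against WT was -3.85 (SE 0.70, adjusted p = 0.00365), and the changes against KO Ctrl and Wnt5a did not pass (adjusted p = 0.266 and 0.088).

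Cd226, an adhesion receptor also known as DNAM-1, was likewise below 1 FPKM, at 0.309, 0.672 and 0.263 FPKM in KO Wnt5a against 8.65, 2.34 and 6.17 in KO Ctrl. It passed there with -2.13 (SE 0.41, adjusted p = 0.0156), and against Wnt5a, at 3.73, 3.88 and 13.8 FPKM, with -2.32 (SE 0.41, adjusted p = 0.00533). The first of these calls was lost in 7 of 15 alternatives.

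Clec1b, the podoplanin receptor CLEC-2, had 6.29, 6.80 and 7.11 FPKM in KO Wnt5a and 21.9, 11.1 and 33.4 in Wnt5a (a change of -1.46 on the log2 scale with SE 0.37 and adjusted p = 0.045), a call lost in 12 of 16 alternatives. Treml1, the granule-membrane protein TLT-1, had 44.5, 51.4 and 39.1 FPKM in KO Wnt5a and 83.9, 72.3 and 154 in Wnt5a (a change of -1.11 on the log2 scale with SE 0.22 and adjusted p = 0.00999). Both sets of KO Wnt5a libraries lay below their Wnt5a counterparts. Neither gene passed against KO Ctrl, which had 30.9, 14.7 and 21.2 FPKM for Clec1b and 69.5, 61.7 and 69.2 for Treml1. Cd9, a tetraspanin of many cell types and the member with the second-highest level in KO Wnt5a, averaged 693 ± 11.97 FPKM in KO Wnt5a and 1089 ± 142 in WT, a change of -0.64 (SE 0.16, adjusted p = 0.0181) that was lost in 5 of 16 alternatives.

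The set's receptors and channels for activating signals split into those that fell and those that did not pass. F2rl2, the thrombin cofactor receptor PAR3 of mouse platelets (ENSMUSG00000021675, chromosome 13, 95696853 to 95702739), was at 50.5, 43.3 and 26.0 FPKM in KO Wnt5a, 191, 87.6 and 99.1 in KO Ctrl, 115, 97.2 and 229 in Wnt5a and 165, 127 and 190.0 in WT. All KO Wnt5a values were below those of the other 9 libraries of this set. The change was -1.80 (SE 0.33, adjusted p = 0.00831) against Wnt5a and -1.60 (SE 0.33, adjusted p = 0.0342) against KO Ctrl, the second lost in 9 of 16 alternatives.

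F2r, the thrombin receptor PAR1, which lies near F2rl2 on chromosome 13 (95601803 to 95618487), averaged 169 ± 11.7 FPKM in KO Wnt5a, 217 ± 45.7 in KO Ctrl, 203 ± 63.8 in Wnt5a and 243 ± 23.2 in WT, and its change against WT did not pass at -0.52 (SE 0.18, adjusted p = 0.0646). Trpc6, a cation channel gated by diacylglycerol, averaged 24.0 ± 2.92 FPKM in KO Wnt5a and 41.9 ± 10.4 in Wnt5a (a change of -0.76 on the log2 scale with SE 0.18 and adjusted p = 0.0277), a call lost in 7 of 16 alternatives, those without any one of the KO Wnt5a libraries included. Against KO Ctrl, at 34.3 ± 6.78 FPKM, Trpc6 did not pass. P2rx1, the ATP-gated channel of platelets, averaged 47.7 ± 11.1 FPKM in KO Wnt5a and 85.1 ± 9.13 in WT (a change of -0.84 on the log2 scale with SE 0.20 and adjusted p = 0.0111), and its KO Wnt5a and Wnt5a libraries overlapped.

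**Figure D3:**
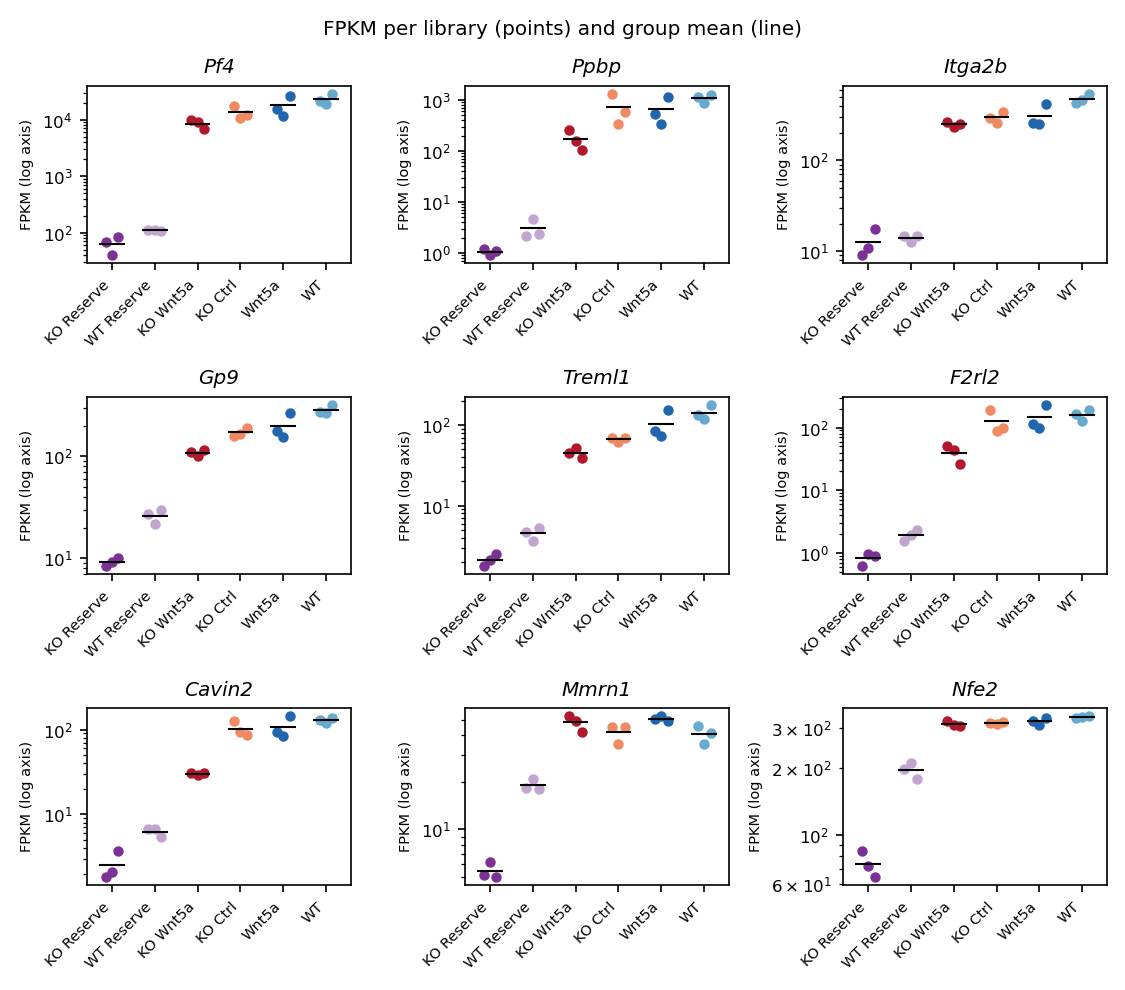
FPKM of single members on a log axis (y) in the 6 groups (x), with 1 point per library and a line at the group mean. The KO Wnt5a points sit below the other non-reserve points for the genes drawn except Itga2b, Mmrn1 and Nfe2, and the reserve points lie below all others.

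Of the granule contents, Pf4 (ENSMUSG00000029373, chromosome 5, 90772435 to 90773383) was at 9813, 9012 and 6682 FPKM in KO Wnt5a, 17644, 10482 and 11923 in KO Ctrl, 15599.8, 11606 and 26280.2 in Wnt5a and 21573, 18977 and 28233 in WT. The highest KO Wnt5a library was below the lowest library of each other group here. The change passed against WT (a change of -1.43 on the log2 scale with SE 0.32 and adjusted p = 0.0126) and not against KO Ctrl or Wnt5a (adjusted p = 0.522 and 0.12).

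Ppbp, the neighbouring chemokine gene whose product is processed to CXCL7 (chromosome 5, 90768518 to 90770063), was at 253, 159.7 and 103 FPKM in KO Wnt5a, 1316, 337 and 591 in KO Ctrl, 538, 345 and 1155 in Wnt5a and 1176, 872 and 1276 in WT. Its KO Ctrl libraries spread widely, with replicate 1 above all WT libraries and the other two below them. The mean was 6.44-fold lower than in WT (a change of -2.75 on the log2 scale with SE 0.51 and adjusted p = 0.00493), and the changes against KO Ctrl and Wnt5a did not pass (adjusted p = 0.11 and 0.0679).

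Selp, the leukocyte-binding P-selectin of alpha granules, was at 59.3, 60.5 and 47.3 FPKM in KO Wnt5a, 119.8, 106 and 232 in Wnt5a and 239, 186 and 228 in WT. It passed against Wnt5a with -1.36 (SE 0.34, adjusted p = 0.0447), a call lost in 10 of 16 alternatives. Against KO Ctrl, at 210.5, 90.6 and 136.9 FPKM, it did not pass. Selp shares exonic bases on the opposite strand with the unnamed RNA genes Gm16587 and Gm16548, with means for Gm16587 of 7.84 FPKM in KO Wnt5a and 29.0 in WT and for Gm16548 of 8.60 in KO Wnt5a and 36.6 in WT, and reads of these genes cannot be told apart there.

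Vwf, the von Willebrand factor of alpha granules and endothelium, averaged 130.3 ± 4.79 FPKM in KO Wnt5a and 241 ± 28.2 in WT (a change of -0.88 on the log2 scale with SE 0.23 and adjusted p = 0.0211), a call lost in 6 of 16 alternatives, those without any one of the KO Wnt5a libraries included. Ltbp1, which binds latent TGF-beta, averaged 5.71 ± 1.06 FPKM in KO Wnt5a and 19.5 ± 4.33 in WT (a change of -1.60 on the log2 scale with SE 0.31 and adjusted p = 0.00347). The KO Wnt5a libraries of both genes were below all 3 WT libraries. Thbs1, the matrix protein thrombospondin-1, was at 1.11, 1.12 and 0.191 FPKM in KO Wnt5a and 3.81, 12.7 and 3.03 in KO Ctrl, with 6.01, 4.58 and 8.53 in WT, and KO Ctrl replicate 2 was the highest of all libraries. It passed against WT (a change of -2.04 on the log2 scale with SE 0.43 and adjusted p = 0.0066), and reads of its opposite-strand neighbour Gm29233, which reached 12.1 FPKM in KO Ctrl, cannot be told apart from it where the genes overlap.

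Mmrn1, the factor V-binding protein multimerin-1, was the exception of the set. It was at 53.0, 49.5 and 42.1 FPKM in KO Wnt5a, 45.2, 35.1 and 45.3 in KO Ctrl, 51.1, 52.7 and 49.2 in Wnt5a and 45.6, 35.0 and 41.2 in WT. KO Wnt5a overlapped with every other group here. The Wnt5a libraries lay above those of WT and of KO Ctrl, and their difference from WT was 0.33 (SE 0.13, adjusted p = 0.546), which did not pass. F5, clotting factor V, was low throughout, with 1.27 ± 0.0895 FPKM in KO Wnt5a and 1.92 ± 0.402 in WT (a change of -0.35 on the log2 scale with SE 0.19 and adjusted p = 0.254). F5 shares 262 exonic bases on the opposite strand with Gm16548, whose means are given above, so reads there cannot be told apart.

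All 3 granule assembly genes passed against KO Ctrl, but each of these calls was lost in several alternatives (Rab27b in 7, Plek in 6 and Slc35d3 in 11 of 16). Rab27b, the GTPase of dense granule release (ENSMUSG00000024511, chromosome 18, 69979131 to 70141605), was at 73.4, 60.1 and 47.2 FPKM in KO Wnt5a, 199.7, 121 and 118 in KO Ctrl, 169, 146 and 295 in Wnt5a and 252, 226 and 266 in WT. KO Wnt5a was lowest without overlap. Its change was -1.69 (SE 0.26, adjusted p = 0.00207) against Wnt5a and -1.24 (SE 0.26, adjusted p = 0.0319) against KO Ctrl.

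Plek, the protein kinase C substrate pleckstrin (ENSMUSG00000020120, chromosome 11, 16971206 to 17052381), was at 111, 95.9 and 76.5 FPKM in KO Wnt5a, 287, 198 and 173 in KO Ctrl, 231, 204 and 355 in Wnt5a and 288, 239 and 298 in WT. It followed the same order, with changes of -1.44 (SE 0.24, adjusted p = 0.00412) against Wnt5a and -1.19 (SE 0.24, adjusted p = 0.0265) against KO Ctrl. Slc35d3, needed for dense granules in mice, averaged 25.3 ± 4.26 FPKM in KO Wnt5a and 53.1 ± 12.9 in KO Ctrl (a change of -1.03 on the log2 scale with SE 0.23 and adjusted p = 0.0375).

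Nfe2, the p45 subunit of the NF-E2 transcription factor that platelet formation requires (ENSMUSG00000058794, chromosome 15, 103248212 to 103258403), changed little among these libraries. It was at 323, 309.7 and 306 FPKM in KO Wnt5a, 318, 313 and 321 in KO Ctrl, 324, 309 and 332 in Wnt5a and 336, 338 and 341 in WT. The KO Wnt5a libraries were below the WT libraries without overlap, and the log2 fold change of -0.11 (SE 0.09, adjusted p = 0.442) did not pass.

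KO Ctrl against WT asks what the knockout changed without the Wnt5a label. Of 31 members 2 were lower in KO Ctrl and 0 higher, where 1.12% of all genes were lower, 1.53% higher and 2.65% changed either way. The medians were -0.44 over the members and 0.04 over all genes, and 12 members did not overlap, with KO Ctrl lower, against 11.4% of all genes. With median-ratio scaling the split of all genes was 190 higher and 316 lower, against 218 and 160 in the main fit, and the count of members was 2 lower in both. Treml1 was at 69.5, 61.7 and 69.2 FPKM in KO Ctrl and 133, 119 and 177 in WT, without overlap (a change of -1.07 on the log2 scale with SE 0.22 and adjusted p = 0.015). Gp9, with its values above, passed at -0.73 (SE 0.16, adjusted p = 0.019). Itga2b (-0.68, SE 0.21, adjusted p = 0.0966) and Rab27b (-0.80, SE 0.26, adjusted p = 0.117) had groups without overlap and did not pass. No member passed without KO Ctrl replicate 2 or without WT replicate 3, and 1 passed without WT replicate 1. KO Ctrl replicate 1 stood higher than the other KO Ctrl libraries, and without it the median was -0.62 and Treml1 and Rab27b passed while Gp9 did not. Granulocyte markers summed to 19.5 to 33.0 FPKM in KO Ctrl and 104 to 123 in WT. Of 14 tested, 2 were lower and 1 higher, with a median log2 fold change of -0.09. LT-HSC markers summed to 1083 to 1115 FPKM in KO Ctrl and 971 to 1035 in WT. Of 16 LT-HSC markers tested, 3 were higher and 0 lower. The part of these markers was not tested.

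Wnt5a against WT asks what the label changed in cells with the wild-type header. No member passed (0 of 31) in limma, where 0.049% of all genes did (0.042% higher, 0.007% lower). At an unadjusted p below 0.05 there were 8 members, 7 of them lower, and 1126 of all 14285 genes. The groups did not overlap, with Wnt5a lower, for 4 members, against 9.71% of all genes. The medians were -0.38 over the members and 0.02 over all genes. The 3 Wnt5a libraries differed among themselves. Replicates 1 and 2 lay below the lowest WT library in 27 and 30 of 31 members, and replicate 3 in 4, against 25.7% to 27.5% of all genes in these libraries. The median difference from the WT mean was -0.58 and -0.73 in replicates 1 and 2 and 0.19 in replicate 3, while LT-HSC markers summed to 974, 988 and 982 FPKM in these libraries. Mast cell and basophil markers summed to 128 to 229 FPKM in Wnt5a and 76.0 to 86.6 in WT, and granulocyte markers to 128 to 179.6 in Wnt5a and 104 to 123 in WT. Of 8 mast cell and basophil markers tested, 2 were higher and 0 lower, and 0 of 14 granulocyte markers passed. The part of these markers was not tested. Without Wnt5a replicate 3 the median was -0.65 and 2 members passed, Gp9 at -0.78 (adjusted p = 0.0292) and F13a1 at -1.20 (adjusted p = 0.0382). With library weights 15 members passed. The share of all genes called in that fit and the weight of each library are not given here, so this count cannot be set beside a background.

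**Figure D4:**
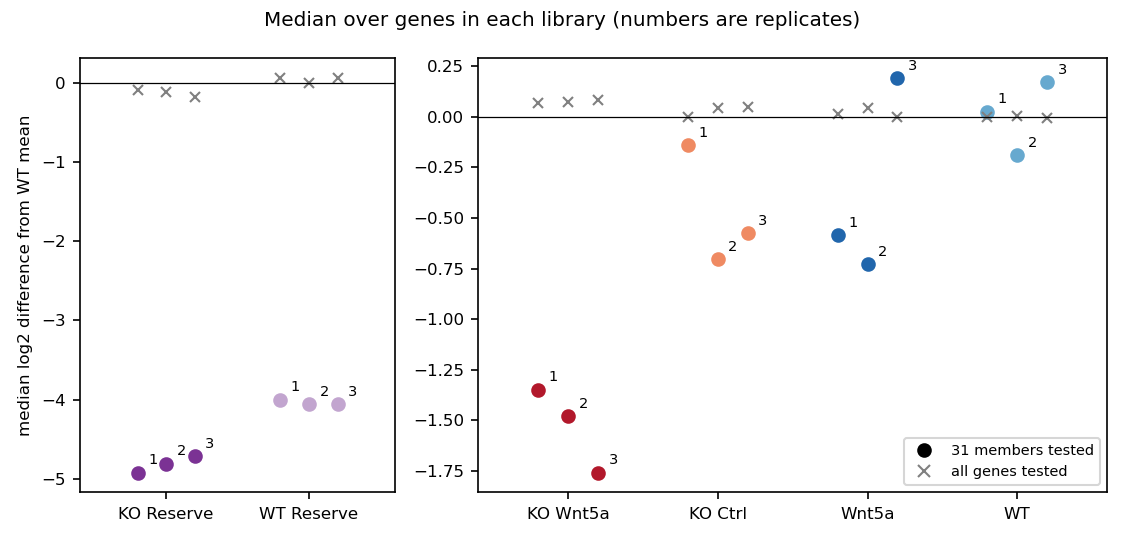
Median log2 difference from the WT mean (y axis, scaled separately for each panel) over the 31 tested members (filled points) and over all genes tested (crosses) in each library, by group (x axis). Wnt5a replicate 3 and KO Ctrl replicate 1 sit above the other libraries of their groups, while the medians of all genes stay near 0.

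The test of whether the label acted differently by genotype, (KO Wnt5a minus KO Ctrl) minus (Wnt5a minus WT), passed for 0 of 31 members, where 0.07% of all genes passed (0.021% higher, 0.049% lower). There were 8 members at an unadjusted p below 0.05, all lower, and 863 of all 14285 genes. The median was -0.48 over the members and 0.01 over all genes. Without Wnt5a replicate 2 there were 2 members past the threshold. That KO Wnt5a differed from KO Ctrl while Wnt5a did not pass against WT is therefore not shown to be a difference between the genotypes.

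The platelet genes were lower in the reserve libraries. Of the 31 members tested, 31 were lower in WT Reserve than in WT, where 27.9% of all genes were lower and 58.7% changed either way, and 31 were lower in KO Reserve than in KO Ctrl, where 40.4% were lower and 65.3% changed. The groups did not overlap for 31 members in each, against 30.4% and 41% of all genes with the reserve libraries lower. Of the reserve libraries, 3 or more had 1 FPKM or more for 23 members only, so 8 of those tested entered through the other libraries, where they are high, and the counts support nothing by themselves. In bulk samples fewer cells of a type and less RNA per cell cannot be told apart. The granulocyte, erythroid and LT-HSC marker sums given above moved with the same libraries, and their part in these values was not tested.

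Pf4 was at 109.6, 114 and 107 FPKM in WT Reserve, 208-fold below the WT mean by the ratio of means. Ppbp was at 2.16, 4.68 and 2.31 FPKM in WT Reserve, 363-fold below WT (a change of -8.13 on the log2 scale with SE 0.51 and adjusted p = 2.25e-08). Nfe2 and Mmrn1 differed least, with 197, 209.5 and 178 FPKM for Nfe2 (a change of -0.80 on the log2 scale with SE 0.09 and adjusted p = 5.77e-07) and 18.3, 21.1 and 18.1 FPKM for Mmrn1 (a change of -1.04 on the log2 scale with SE 0.13 and adjusted p = 3.52e-06). Cd9 was at 107 ± 10.4 FPKM and Itga2b at 14.1 ± 1.22 in WT Reserve (SD, n = 3). Gm26728, which shares 10.7% of the exonic bases of Cd9 on the opposite strand, was at 0.229 FPKM in WT Reserve and 48.5 FPKM in WT. Gp6 was listed at 0 in all 6 reserve libraries, and at up to 19.0 FPKM in WT, so no fold is given. For the other 24 members tested the change in WT Reserve against WT lay between -5.79 (Selp) and -1.19 (F5) on the log2 scale.

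KO Reserve against WT Reserve compares the genotypes within the reserve set. Of 31 members 14 were lower in KO Reserve and 0 higher, where 29.3% of all genes were lower and 41.3% changed either way, and 21 did not overlap with KO Reserve lower, against 30.7% of all genes. The median was -0.75 over the members and -0.17 over all genes, so that single changes are to be read against that shift. With quantile normalization all genes split into 3154 higher and 2764 lower, against 1708 and 4191 in the main fit, and the members into 9 lower and 1 higher, with a median of -0.52. The 1 higher was Ltbp1, at 1.01 (adjusted p = 0.0171 in limma). With median-ratio scaling they split into 3166 and 2800, and the members into 10 lower and 0 higher, with a median of -0.56. F2r, Gp1bb, Rab27b and Selp lost their calls under both scalings, and Slc35d3 under quantile normalization. LT-HSC markers, of which 14 of 16 tested were lower and 0 higher, moved with these members. So did 8 of 14 granulocyte, 6 of 10 monocyte and macrophage and 6 of 12 lymphoid markers, with 0 higher in each list. Erythroid markers had 8 of 15 higher and 1 lower. Monocyte and macrophage markers summed to 153 to 184 FPKM in KO Reserve and 498 to 725 in WT Reserve. The part of cell makeup was not tested.

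**Figure D5:**
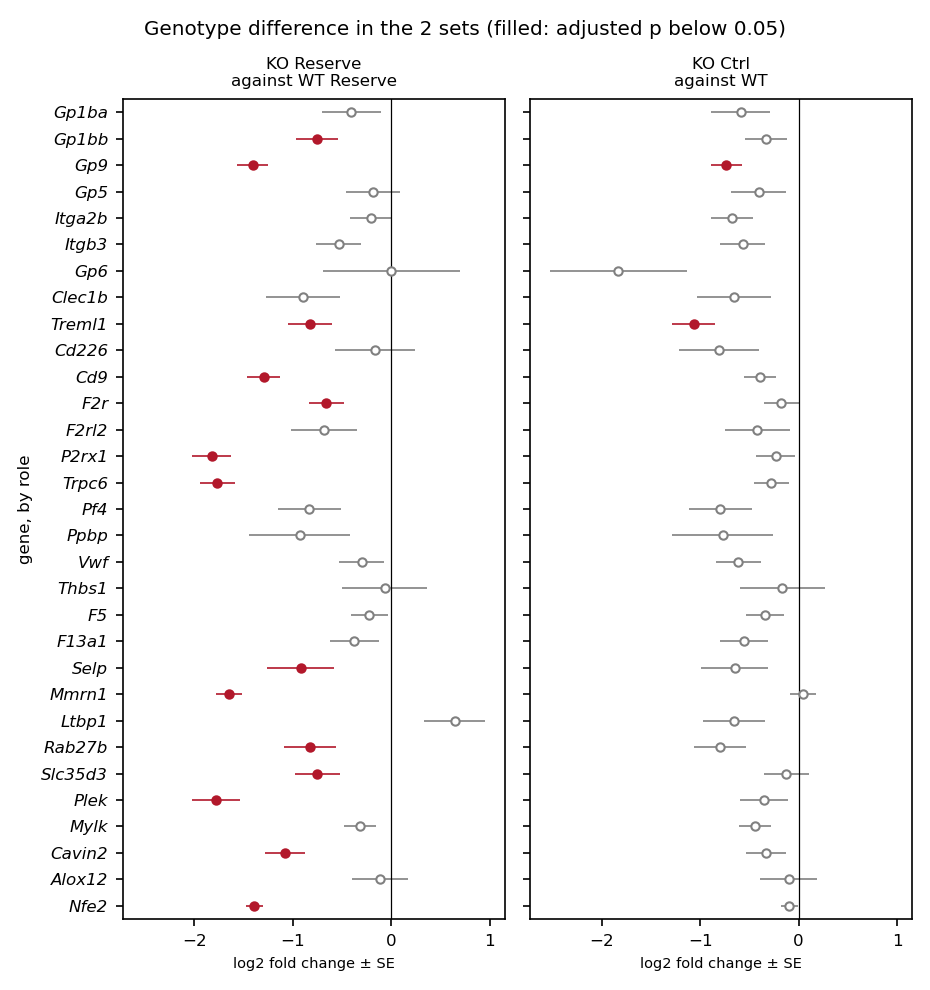
Log2 fold change with its SE (x axis) of each tested member (y axis, by role) between the genotypes in the library sets named above the panels. P2rx1, Trpc6, Plek, Mmrn1, Gp9 and Nfe2 lie furthest left for KO Reserve against WT Reserve. For KO Ctrl against WT Gp9 lies at -0.73 and the other 5 between -0.35 and 0.04. Filled points passed the threshold.

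The activation channels P2rx1 and Trpc6 were among the members with the largest changes. P2rx1 (ENSMUSG00000020787, chromosome 11, 72999103 to 73015200) was at 1.83, 1.74 and 2.12 FPKM in KO Reserve and 10.7, 8.62 and 8.54 in WT Reserve, 4.90-fold lower by the ratio of means (a change of -1.82 on the log2 scale with SE 0.20 and adjusted p = 2.8e-06). Trpc6 (ENSMUSG00000031997, chromosome 9, 8544142 to 8680741) was at 0.96, 1.02 and 0.688 FPKM in KO Reserve and 6.41, 5.59 and 4.41 in WT Reserve (a change of -1.77 on the log2 scale with SE 0.18 and adjusted p = 1.56e-06). Both genes had every KO Reserve library far below every WT Reserve library. F2r was lower by less, at 4.17 ± 0.723 FPKM in KO Reserve and 7.13 ± 0.333 in WT Reserve (a change of -0.66 on the log2 scale with SE 0.18 and adjusted p = 0.00651), and F2rl2 did not pass (-0.68, SE 0.33, adjusted p = 0.116).

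Among granule genes, Mmrn1 (ENSMUSG00000054641, chromosome 6, 60924976 to 60989378), which stayed between 35.0 and 53.0 FPKM in the other 12 libraries, was at 5.11, 6.2 and 4.95 FPKM in KO Reserve and 18.3, 21.1 and 18.1 in WT Reserve (a change of -1.65 on the log2 scale with SE 0.13 and adjusted p = 1.42e-07). Plek was at 4.88, 3.30 and 3.61 FPKM in KO Reserve and 13.9, 22.1 and 12.7 in WT Reserve (a change of -1.78 on the log2 scale with SE 0.24 and adjusted p = 3.68e-05). Neither gene's groups overlapped. Plek shares 199 exonic bases on the opposite strand with Cnrip1, which itself averaged 4.27 ± 0.534 FPKM in KO Reserve and 14.3 ± 3.17 in WT Reserve (SD, n = 3 each), so reads there cannot be told apart. The part of Cnrip1 in the change of Plek was not tested. Selp averaged 1.16 ± 0.789 FPKM in KO Reserve and 3.01 ± 1.05 in WT Reserve (a change of -0.92 on the log2 scale with SE 0.34 and adjusted p = 0.0431), a call lost in 10 of 15 alternatives. Rab27b (-0.83, SE 0.26, adjusted p = 0.0191) and Slc35d3 (-0.75, SE 0.23, adjusted p = 0.0136) also passed.

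Pf4 was at 68.5, 40.0 and 84.1 FPKM in KO Reserve and 109.6, 114 and 107 in WT Reserve, without overlap, and did not pass (a change of -0.83 on the log2 scale with SE 0.32 and adjusted p = 0.0529). Vwf and Itga2b, the members best known from platelet-biased LT-HSC, overlapped between the genotypes, with -0.30 (SE 0.23, adjusted p = 0.315) for Vwf and -0.21 (SE 0.21, adjusted p = 0.459) for Itga2b. Ltbp1 stood alone in the other direction, at 2.67, 3.38 and 3.41 FPKM in KO Reserve and 2.05, 1.39 and 1.56 in WT Reserve (a change of 0.64 on the log2 scale with SE 0.31 and adjusted p = 0.111).

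At the surface, Gp9 was at 8.37, 9.18 and 9.98 FPKM in KO Reserve and 27.2, 21.8 and 29.5 in WT Reserve (a change of -1.41 on the log2 scale with SE 0.16 and adjusted p = 4.12e-06). Cd9 was at 48.8, 40.3 and 40.3 FPKM in KO Reserve and 103, 119 and 99.5 in WT Reserve (a change of -1.30 on the log2 scale with SE 0.16 and adjusted p = 1.44e-05). Neither overlapped. Gp1bb (-0.76, SE 0.21, adjusted p = 0.00886), Treml1 (-0.83, SE 0.22, adjusted p = 0.00655) and Cavin2 (-1.08, SE 0.20, adjusted p = 0.000454) passed as well, while Gp1ba (-0.41, SE 0.30, adjusted p = 0.302) and Gp5 (-0.19, SE 0.28, adjusted p = 0.62) of the same complex as Gp9 and Gp1bb did not.

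Nfe2 was at 84.4, 72.7 and 64.6 FPKM in KO Reserve and 197, 209.5 and 178 in WT Reserve (a change of -1.39 on the log2 scale with SE 0.09 and adjusted p = 1.38e-08). The groups lay far apart relative to their spread, unlike in the other libraries, where all 12 values fell between 306 and 341 FPKM. The difference between the 2 genotype effects, (KO Reserve minus WT Reserve) minus (KO Ctrl minus WT), was -1.30 (SE 0.12, adjusted p = 2.53e-06) for Nfe2. Over the set, 7 members had a more negative effect in the reserve libraries and 1 a more positive one, where 22.9% and 8.03% of all genes did (30.9% either way), and the medians were -0.04 over the members and -0.22 over all genes. The members called were 25.8% of those tested, not above the share of all genes.

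The rest of the platelet programme, taken from lists of other genes, was lower in part. Of 30 further platelet receptor and signalling genes, 10 were lower and 0 higher in KO Wnt5a against WT, where 5.03% of all genes were lower. Among the 10 were Ptgir, the prostacyclin receptor (log2 fold change -3.23, SE 0.38, adjusted p = 9.9e-05), and Rgs10 (-1.22, SE 0.16, adjusted p = 0.00018) and Fcer1g (-1.34, SE 0.19, adjusted p = 0.000337). Against Wnt5a 6 were lower, against KO Ctrl 3, and in KO Ctrl against WT 2, with 0 higher each time. Those 2 were Fcer1g (-1.02, SE 0.19, adjusted p = 0.00741) and the adaptor gene Lat (-0.58, SE 0.12, adjusted p = 0.0192). Of 27 further granule and secretion genes, 7 were lower and 1 higher in KO Wnt5a against WT, led by Clu, the chaperone clusterin (-1.32, SE 0.17, adjusted p = 0.00014), and Pdgfb, the platelet-derived growth factor B chain (-1.56, SE 0.22, adjusted p = 0.000272), while Slc18a2, which loads amines into granules, was the 1 higher (0.91, SE 0.18, adjusted p = 0.00313). Of 22 further cytoskeletal genes 5 were lower and 0 higher, with the tropomyosin gene Tpm4 (-1.82, SE 0.22, adjusted p = 9.9e-05), the beta-tubulin gene Tubb6 (-2.13, SE 0.26, adjusted p = 0.000101) and the focal adhesion gene Zyx (-0.99, SE 0.15, adjusted p = 0.000553).

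Of 19 transcription factor genes of the lineage, 3 were higher and 1 lower in KO Wnt5a against WT, where 6.8% of all genes were higher and 5.03% lower. Mecom (log2 fold change 1.16, SE 0.17, adjusted p = 0.000397), a stem cell factor, and Cbfb (0.47, SE 0.09, adjusted p = 0.00299), the partner of RUNX proteins, were higher, as was Gata2 (0.94, SE 0.19, adjusted p = 0.00403), which is active in stem cells and mast cells as well, and Gata1, the GATA factor of megakaryocytes and red cells, was lower (-1.01, SE 0.17, adjusted p = 0.00119). None of the 19 passed in KO Ctrl against WT. Among genes of thrombopoietin signalling, the feedback inhibitor gene Socs3 (-1.30, SE 0.20, adjusted p = 0.000593) and the phosphatase gene Ptpn11 (-0.75, SE 0.15, adjusted p = 0.0034) were lower in KO Wnt5a than in WT, and Stat5a (0.56, SE 0.13, adjusted p = 0.0119), which carries the signal to the nucleus, and the docking protein gene Gab1 (0.65, SE 0.17, adjusted p = 0.0186) were higher. No gene of the receptor, granule, cytoskeletal and transcription factor lists passed in Wnt5a against WT.

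In KO Reserve against WT Reserve, 21 of the 30 receptor and signalling genes were lower and 2 higher, led by the thromboxane synthase gene Tbxas1 (-2.73, SE 0.17, adjusted p = 1.68e-08), the adaptor gene Lcp2 (-2.09, SE 0.15, adjusted p = 4.47e-08) and Esam (-2.58, SE 0.19, adjusted p = 6.15e-08). Of the 27 granule genes 17 were lower and 1 higher, and of the 22 cytoskeletal genes 12 were lower and 1 higher, where 29.3% of all genes were lower and 41.3% changed either way. Of the 19 transcription factor genes 11 were lower and 1 higher, including Mecom (-2.04, SE 0.17, adjusted p = 2e-07). Esam and Mecom also stand in the LT-HSC marker list, which was lower in the same libraries.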

How the data were processed

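RNA of sorted LT-HSC was amplified with the SMARTer ultra low input kit and sequenced, per the labels' protocols. The authors deposited 1 table of FPKM values per gene and library, whose header does not name the unit. CASAVA 1.8.2, TopHat2 2.0.10, Cufflinks and mm10 are named in the submitters' processing notes, without their settings. FPKM are relative values, so they shift with the makeup of the RNA, and amplification adds noise to low genes.

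Genes with missing values (16) were dropped and those with at least 1 FPKM in at least 3 libraries kept. limma 3.58.1 (R 4.3.3) fitted log2(FPKM + 1) with 1 mean per group over all 18 libraries, with trend and robust moderation, 8 pairwise comparisons and 2 interactions. P-values were adjusted by Benjamini-Hochberg over all 14285 genes of a comparison, with 0.05 as threshold. Fold changes are on the log2(FPKM + 1) scale and understate changes of low genes. A single-value exact permutation test of 3 against 3 libraries cannot go below 0.1 and was not used. Positions come from GENCODE M21 (GRCm38).

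Members and lists were chosen with earlier results of these data known. Every member past the threshold, or with a group mean of at least 5 FPKM, is named, and up to 3 called genes with the smallest p from each other list. One gene of the thrombopoietin signalling list, and the counts of that list, are not reported here. Alternatives were other scalings, pseudocounts, filters, library subsets, library weights, a replicate block and leaving out each library. The fit was tested on simulated data.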

Additional observations from a re-analysis of the deposited data

Results flagged for a closer look

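The genotype effect differed between the reserve libraries and the other libraries for 8 members, by the test of (KO Reserve minus WT Reserve) minus (KO Ctrl minus WT) in limma. It was more negative among the reserve libraries for Gp9 (-0.68 on the log2 scale), Cd9 (-0.90), P2rx1 (-1.59), Trpc6 (-1.49), Mmrn1 (-1.69), Plek (-1.43) and Nfe2 (-1.30). It was more positive for Ltbp1 (1.30). The call was lost in 10 of 21 alternatives for Gp9, in 9 for Ltbp1 and in 1, median-ratio scaling, for Cd9, and in 0 for the other 5. Of all genes tested, 22.9% had a more negative and 8.03% a more positive difference (30.9% either way). The 8 members were 25.8% of the 31 tested, so members were not called more often than all genes. The library sets also differ in allele header and in the sums of granulocyte and erythroid markers, and the part of these was not tested.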

How the results depend on the processing

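Member results past the threshold in the main fit were recomputed under the alternatives. Of these, 1950 kept their direction and still passed, 180 no longer passed and 0 reversed. The totals pool comparisons that differ in stability. WT Reserve against WT kept all 31 calls whichever library was left out. KO Wnt5a against KO Ctrl lost 7 of 10 calls without KO Wnt5a replicate 3 and 7 of 10 without KO Ctrl replicate 1. Members that passed only under an alternative are not in these counts. The median over the members was -4.67 for KO Reserve against KO Ctrl with genes of at least 5 FPKM on average, -4.01 with median-ratio scaling and -5.04 with a pseudocount of 0.1. For KO Reserve against WT Reserve it was -0.56 with median-ratio scaling, -0.96 with the smaller pseudocount and -0.52 with quantile normalization. It was -0.76 for KO Wnt5a against KO Ctrl with the stricter filter, and -4.31 for WT Reserve against WT with that filter and -4.39 with the smaller pseudocount. For the difference of genotype effects between the library sets it was -0.27, -0.43 and 0.15 with the stricter filter, the smaller pseudocount and quantile normalization. Members called numbered 7 with library weights and 0 without a filter for KO Ctrl against WT, and 15 with library weights for Wnt5a against WT. For KO Wnt5a against KO Ctrl they numbered 3 without a filter, 3 with only the 12 libraries without the reserve label (chosen after seeing the data) and 5 with only the libraries compared, and for KO Wnt5a against Wnt5a 3 with only those compared. For the Wnt5a effect by genotype they numbered 2 with library weights and 1 with the smaller pseudocount. The shares of all genes called in the fits behind these counts are not given here. ETS letters were in 38.5% of members in the window from 100 bases before the start, and in 57.7% in the longer window. Over all genes with a window the shares were 33.7% and 49.8%, so both fell. The cause of these shifts was not tested.

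Leaving out 1 library at a time gave medians of -0.62 to -0.32 for KO Ctrl against WT, -4.38 to -4.13 for KO Reserve against KO Ctrl, -0.74 to -0.67 for KO Reserve against WT Reserve, -1.02 to -0.79 for KO Wnt5a against KO Ctrl, -1.56 to -1.33 for KO Wnt5a against WT, -1.27 to -0.61 for KO Wnt5a against Wnt5a, -4.13 to -3.89 for WT Reserve against WT and -0.65 to -0.24 for Wnt5a against WT. The medians of the Wnt5a effect by genotype were -0.69 to -0.22, and those of the genotype effect by library set -0.22 to 0.077. Counts of members called were 0 to 2, 30 to 31, 12 to 14, 3 to 12, 20 to 26, 9 to 19, 31 to 31 and 0 to 2 in the same order of comparisons, and 0 to 2 and 6 to 8 for these differences.

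Same-numbered replicates showed no strong shared deviation from their group means over all genes (correlations of -0.0917 to 0.0789). With 3 libraries per group this cannot exclude that they share an animal or a batch. With a replicate block the counts were 3 for KO Ctrl against WT, 31 for KO Reserve against KO Ctrl, 14 for KO Reserve against WT Reserve, 9 for KO Wnt5a against KO Ctrl, 27 for KO Wnt5a against WT, 13 for KO Wnt5a against Wnt5a, 31 for WT Reserve against WT, 0 for Wnt5a against WT, and 0 and 8 for these differences. At the inferred depths, values under about 0.147 FPKM rest on a few fragments for a 1 kb transcript.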
